A study of Mus musculus with 6 samples.

Results

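The oligosaccharyltransferase (OST) is the membrane complex of the endoplasmic reticulum that moves a preassembled glycan from its dolichol carrier onto asparagine residues of proteins entering the secretory pathway. The 8 subunit genes described here are Rpn1, Rpn2, Ddost, Stt3a, Stt3b, Dad1, Ostc and Tusc3. They were taken by gene symbol from 19505 measured genes, and all 8 were found, each with 1 feature carrying that symbol alone. The family was chosen by a measured value, the lower level of Rpn2 at 2.5 µM of the compound than in control. The values at 2.5 µM are therefore a description of these genes, with no test.

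The cells were B16F10, a pigmented mouse melanoma line bought from RIKEN and grown in RPMI1640. After 24 h of seeding they were kept for 48 h in medium alone (control), in medium with 2.5 µM, or in medium with 40 µM of the compound that the labels call di-sq in the sample names and SQ-diEG in the series title. Each of the 3 groups held 2 arrays of total RNA from a single-colour Affymetrix platform, and the values are log2 expression values made by the authors with robust multi-array averaging (RMA). Whether the paired arrays within a group stem from separate cultures is not stated in the labels, so p-values reflect only how far these samples spread, possibly for technical reasons. Groups follow the sample titles and treatment fields, since the free-text description of 1 sample at 2.5 µM names medium and those of 3 treated samples name another treatment.

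A pair of arrays differed from the remaining 4, namely replicate 1 of each dose. Hybridisation controls, spiked-in RNAs that report on the array step, averaged 10.4 (2.5 µM) and 10.3 (40 µM) there on the log2 scale, against 10.8 to 11.2 elsewhere, and these are called the low arrays. Poly-A controls, RNAs added ahead of labelling, were also lowest there, at 5.65 and 5.63 against 6.35 to 7.42. The interquartile range over all genes was widest there, at 5.20 and 5.43 against 4.90 to 4.94. The 2 control arrays correlated across genes at r = 0.998 and the 2 arrays at 40 µM at 0.983. The labelled cell type was met by its markers: 7 of 7 pigment cell genes (Tyr, Tyrp1, Dct, Pmel, Mlana, Mitf and Sox10) lay between 12.7 and 19.2 on every array, whereas 6 measured markers of keratinocytes, fibroblasts, leukocytes and endothelium lay between 2.76 and 5.94. Background was set at 9.94, the mean over arrays of the level that 95% of negative control features stayed under.

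OST works in mammals as a pair of complexes built around different catalytic subunits. The STT3A complex docks on the translocon and glycosylates chains as they enter the lumen, and the STT3B complex, which carries TUSC3 or MAGT1, also acts on sites that were skipped. Ribophorin I, ribophorin II, DDOST and DAD1 are shared by both. In pigment cells tyrosinase and its relatives are N-glycoproteins and so are clients of this step.

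Of the shared subunits, Rpn2 (ribophorin II) had a pattern unlike the other members. Its log2 expression was 14.11 and 14.11 in control, 13.13 and 13.30 at 2.5 µM, and 13.93 and 13.95 at 40 µM (replicates 1 and 2 of each group). Both arrays at 2.5 µM lay below every other array, and both arrays at 40 µM lay between them and the controls. At 2.5 µM the mean was 13.21 ± 0.119, against 14.11 ± 0.00141 for control (SD, n = 2 each), a log2 difference of -0.89, or 1.86-fold lower at 2.5 µM. This is the value that chose the family. At 40 µM, on arrays that the choice did not use, Rpn2 averaged 13.94 ± 0.0129, against the same controls, with a log2 difference of -0.16, a 95% interval from -0.55 to 0.23 and an adjusted p of 0.69 (limma, over all genes). Rpn2 was therefore not shown to differ from control at 40 µM, although both arrays lay below both controls. The choice rested on the same controls, and controls high by chance would favour a lower Rpn2 here too. Against 2.5 µM, Rpn2 was higher at 40 µM by 0.73 (0.81 between the 2 low arrays and 0.66 between the other 2). That is a description only, since the choice of Rpn2 as low at 2.5 µM favours this difference.

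The position of Rpn2 did not follow the array split. At 2.5 µM this, and the contrast with the other members, is a description only. A gene chosen as low there is favoured to be low on both arrays. Replicate 1 minus replicate 2 was -0.17 at 2.5 µM and -0.02 at 40 µM for Rpn2, and at 40 µM this was the smallest gap of the members. The other 7 members had a median difference from the control mean of 0.60 on 2.5 µM replicate 1, where Rpn2 was at -0.98, and of -0.16 on 2.5 µM replicate 2, where Rpn2 was at -0.81. On 40 µM replicate 2, all 7 lay above their control mean, by 0.01 to 0.55, and Rpn2 lay below its own by 0.15.

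**Figure D1:**
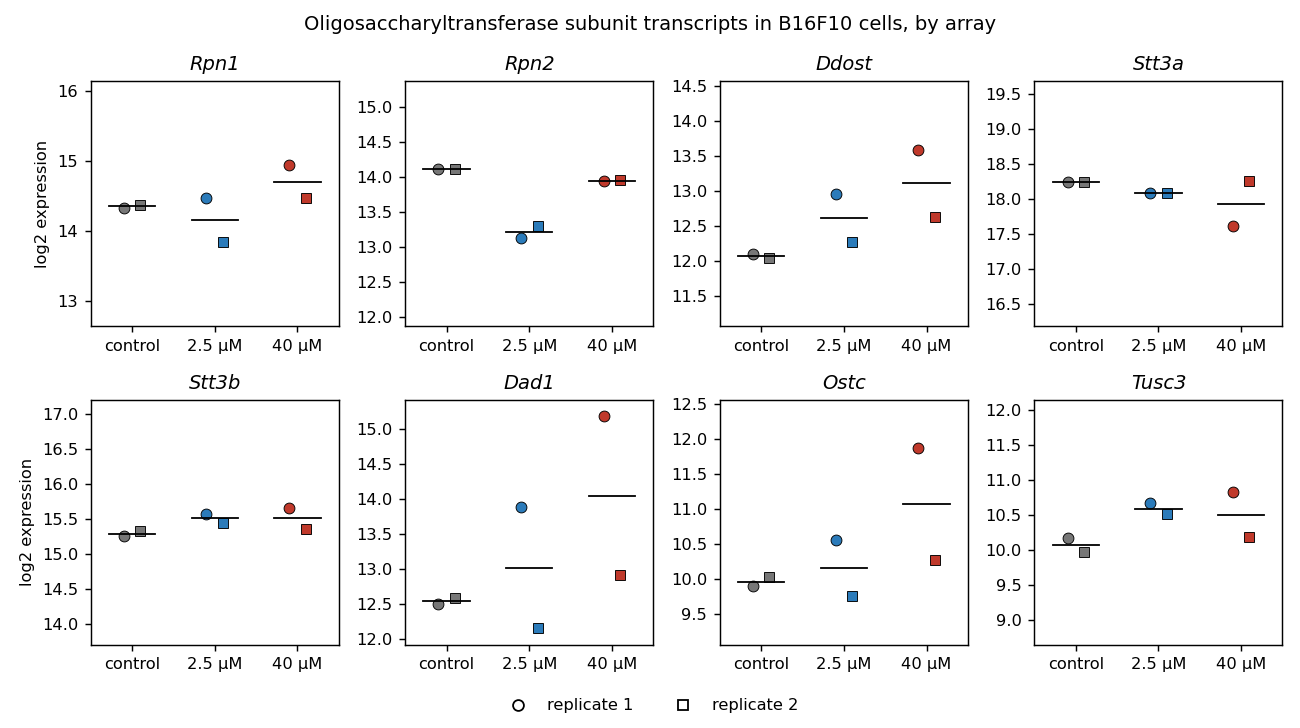
Log2 expression (y axis) of the 8 OST members in control, at 2.5 µM and at 40 µM (x axis), with circles for replicate 1, squares for replicate 2 and a line at the mean of the 2 arrays; each panel spans the same number of log2 units. Rpn2 is low on both arrays at 2.5 µM, at 13.13 and 13.30, while Dad1 and Ostc are high mainly on the circles of the treated groups.

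Ribophorin I, which binds newly made membrane proteins beside the catalytic subunit, did not share this pattern. Rpn1 lay at 14.33 and 14.38 in control, 14.47 and 13.85 at 2.5 µM, and 14.94 and 14.47 at 40 µM. Its arrays at 2.5 µM lay on either side of the controls, and both at 40 µM lay above them, with a log2 difference of 0.35 (SE 0.26) that did not pass.

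Ddost, the shared subunit that holds the complex together beside the ribophorins, was highest at 40 µM. It lay at 12.09 and 12.05 in control, 12.96 and 12.27 at 2.5 µM, and 13.59 and 12.62 at 40 µM. All 4 treated arrays lay above both controls, and within each dose the low array was the higher. At 40 µM the mean was 13.11 ± 0.685, against 12.07 ± 0.0318 for control (SD, n = 2 each), a 2.05-fold difference (log2 1.04, SE 0.36). Its adjusted p was 0.368 over all genes (limma), so it did not pass, and its unadjusted p was 0.0222.

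Dad1, a small subunit named as a defender against cell death, had the largest mean difference of the members at 40 µM and the largest spread. It lay at 12.50 and 12.57 in control, 13.88 and 12.15 at 2.5 µM, and 15.18 and 12.91 at 40 µM. The groups at 2.5 µM and control overlapped, and at 40 µM most of the difference lay on the low array. At 40 µM the mean was 14.04 ± 1.61, against 12.53 ± 0.0546 for control (SD, n = 2 each), a log2 difference of 1.51 with a 95% interval from -0.32 to 3.34 (limma, adjusted p = 0.458).

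Stretches of 250 bases before the annotated start sites are shown for the shared subunit lowest against control at 2.5 µM (Rpn2, the more upstream of 2 listed starts) and for the shared subunits among the 8 members with the largest differences at 40 µM (Ddost and Dad1). The sequences are RefSeq's on mouse build GRCm38.p6, written from 5′ to 3′ on the gene's own strand. Capitals mark CCAAT on either strand, the letters bound by the factor NF-Y.
Rpn2 (chr2:157278848-157279097, + strand): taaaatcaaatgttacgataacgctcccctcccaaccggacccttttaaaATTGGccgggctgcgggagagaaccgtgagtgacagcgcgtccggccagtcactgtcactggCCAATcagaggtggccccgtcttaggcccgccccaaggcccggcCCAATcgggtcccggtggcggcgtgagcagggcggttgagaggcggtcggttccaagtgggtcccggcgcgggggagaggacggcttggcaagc
Ddost (chr4:138304488-138304737, + strand): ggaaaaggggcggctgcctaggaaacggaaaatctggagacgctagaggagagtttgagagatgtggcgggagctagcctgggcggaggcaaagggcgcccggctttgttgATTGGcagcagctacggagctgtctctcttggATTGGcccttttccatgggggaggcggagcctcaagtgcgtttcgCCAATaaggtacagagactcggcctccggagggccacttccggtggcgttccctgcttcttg
Dad1 (chr14:54253930-54254179, - strand): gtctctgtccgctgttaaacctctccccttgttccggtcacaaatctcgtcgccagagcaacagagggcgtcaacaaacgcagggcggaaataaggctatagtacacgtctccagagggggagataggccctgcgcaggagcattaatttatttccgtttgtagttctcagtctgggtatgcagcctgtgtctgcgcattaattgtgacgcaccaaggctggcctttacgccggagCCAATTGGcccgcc
RefSeq windows were found for 6 of the 8 members, in 7 windows, and not for Ostc and Tusc3. The windows were searched on both strands for the endoplasmic reticulum stress element (ERSE, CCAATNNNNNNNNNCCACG), for ERSE-II (ATTGG, any 1 base, then CCACG) and for the core TGACGTGG of the unfolded protein response element, which occur in 0.113%, 0.0304% and 0.563% of all 32851 windows. None of the 7 member windows held these letters. CCAAT alone, which is part of both stress elements, was in 6 of 7 member windows, at least 1 for each of the 6 genes, and in 33.8% of all windows. CCACG, the other part, was in 3 of 7, those of Rpn1, Stt3a and Stt3b, and in 28.3% of all. The Rpn2 and Ddost windows shown held CCAAT 3 times each, and Dad1 held it on both strands at overlapping positions.

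The catalytic subunits had smaller mean differences than Ddost and Dad1. Stt3a, the catalytic subunit of the translocon-bound complex, lay at 18.25 and 18.25 in control, 18.09 and 18.09 at 2.5 µM, and 17.62 and 18.26 at 40 µM. Both arrays at 2.5 µM lay slightly below the controls, and at 40 µM only the low array did. The log2 difference at 40 µM was -0.31 (95% interval -0.82 to 0.20, limma adjusted p = 0.559), and without 40 µM replicate 1 it was 0.0064. The values lie near the top of the deposited scale, whose maximum was 19.9, and saturation was not tested.

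Stt3b, the catalytic subunit of the other complex, lay at 15.26 and 15.33 in control, 15.58 and 15.45 at 2.5 µM, and 15.67 and 15.36 at 40 µM. All 4 treated arrays lay above both controls by small amounts, with a log2 difference of 0.22 at either dose. At 40 µM its 95% interval ran from -0.19 to 0.63 and its adjusted p was 0.602 (limma).

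The accessory subunits of each complex followed. Ostc, which links the STT3A complex to the translocon, lay at 9.90 and 10.02 in control, 10.56 and 9.75 at 2.5 µM, and 11.87 and 10.28 at 40 µM. In control it was at the background level, so the log2 difference of 1.11 at 40 µM (SE 0.51, limma adjusted p = 0.431) starts from a value not clearly above background. It was 0.32 without 40 µM replicate 1, and 0.51 once low and other arrays were fitted as blocks. Tusc3, a thioredoxin-like subunit of the STT3B complex, lay at 10.16 and 9.97 in control, 10.66 and 10.51 at 2.5 µM, and 10.82 and 10.18 at 40 µM. Both doses lay above both controls, at 2.5 µM by 0.52, and at 40 µM by 0.44 (SE 0.26, limma adjusted p = 0.509), again from a control level near background. Without 40 µM replicate 1 the difference at 40 µM was 0.11.

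Over the family at 40 µM, none of 8 members passed at an adjusted p under 0.05 (limma), and neither did any gene (0% of 19505). At an unadjusted p under 0.05, 1 member was higher (Ddost), where 5.18% of all genes were, and 0 were lower, where 6.86% were. In 6 members both arrays at 40 µM lay above both controls, a state found in 22.2% of all genes and 26.2% of those above background, and in 1, Rpn2, both lay below, as in 26.3% of all and 23% of those above background. The members' median log2 difference was 0.39, beside -0.01 over all genes and 0.05 over the 4147 genes with a mean above background, to which all 8 belonged. Taken array by array, that median reached 0.67 for replicate 1 at 40 µM and 0.12 for replicate 2. Without 40 µM replicate 2, 5 members passed, Ddost, Dad1, Ostc and Tusc3 as higher and Stt3a as lower, where 7.46% of all genes passed as higher and 3.99% as lower. Without 40 µM replicate 1, none of the 8 passed (adjusted p = 0.436 for Ddost, 0.829 for Dad1, 0.713 for Ostc, 0.825 for Tusc3 and 0.985 for Stt3a, limma). In both cases the spread of the lone array at 40 µM was taken from the remaining groups. Without both low arrays Ddost (0.55, adjusted p = 0.0049) and Dad1 (0.37, adjusted p = 0.0168) passed as higher, where 9.15% of all genes did, the error then resting on the pair of controls.

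At 2.5 µM, as a description, 5 members were higher and 3 lower, with a median log2 difference of 0.21 beside 0.01 over all genes. Ddost, Stt3b and Tusc3 had both arrays above both controls, as 27.1% of all genes and 34% of those above background had. Rpn2 and Stt3a had both below, as 25.9% and 23.7% had. Without 2.5 µM replicate 1 the median turned to -0.18. At 40 µM against 2.5 µM the members' median was 0.52. Rpn2 was the 1 member with both arrays at 40 µM above both at 2.5 µM, as 12.4% of all genes and 9.89% of those above background had, and nothing is read from this, since Rpn2 was chosen as low on the 2.5 µM arrays. The comparisons share arrays and are not independent of each other.

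**Figure D2:**
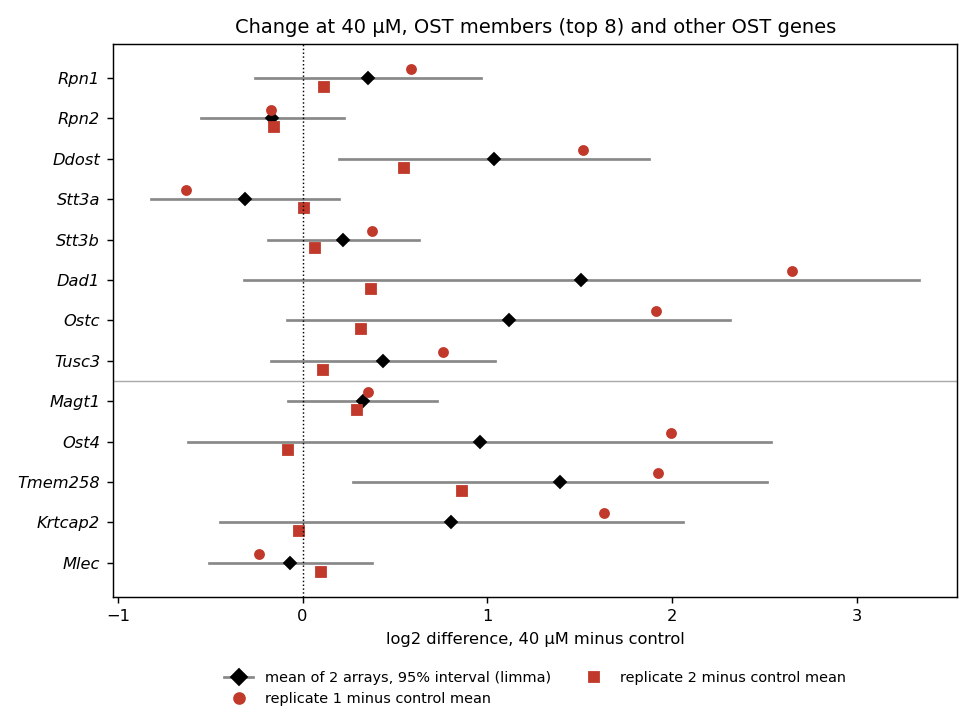
Log2 difference of 40 µM minus control (x axis) for the 8 OST members and, under the line, 5 other OST genes (y axis). Diamonds with bars are the mean of 2 arrays with limma's 95% interval; circles and squares are replicates 1 and 2 at 40 µM minus the control mean. Ddost averages 1.04 and Rpn2 -0.16, and circles and squares of Dad1 lie far apart.

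Of 5 further OST genes, a list that holds the remaining subunits and malectin (Mlec), a glycan-binding partner of ribophorin I, none passed at either dose (limma over all genes, smallest adjusted p = 0.366 at 40 µM and 0.609 at 2.5 µM). At an unadjusted p under 0.05, Tmem258, a small subunit shared by both complexes, was higher at 40 µM, where 5.18% of all genes were. It lay at 9.14 and 9.07 in control, 10.33 and 9.06 at 2.5 µM, and 11.02 and 9.97 at 40 µM, below or near background on most arrays. Magt1, the counterpart of Tusc3 in the STT3B complex, lay at 14.82 and 14.93 in control, 14.71 and 14.98 at 2.5 µM, and 15.23 and 15.17 at 40 µM. Its 2 arrays at 40 µM were close together and above the controls, by 0.33 (SE 0.17, limma adjusted p = 0.467). Ost4, the smallest subunit, and Krtcap2, the partner of Ostc at the translocon, had log2 differences of 0.96 and 0.81 at 40 µM with standard errors of 0.67 and 0.53. Both differences lay on the low array. Replicates 1 and 2 at 40 µM lay 2.00 and -0.08 from the control mean for Ost4, and 1.63 and -0.02 for Krtcap2. Mlec had -0.07 (SE 0.19).

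The OST genes differed in how far they followed the array split, an ordering made after the values were seen and without a clear break. Replicate 1 minus replicate 2 at 40 µM was 2.28 for Dad1, 2.08 for Ost4, 1.65 for Krtcap2, 1.60 for Ostc and 1.06 for Tmem258. At 2.5 µM the same genes had 1.73, 1.31, 0.99, 0.81 and 1.27. Ddost (0.97 at 40 µM, 0.69 at 2.5 µM), Tusc3 (0.65, 0.15), Rpn1 (0.47, 0.63) and Stt3b (0.31, 0.13) came next. The smallest gaps at 40 µM were those of Rpn2 (-0.02, -0.17) and Magt1 (0.06, -0.27). Mlec (-0.34, 0.16) and Stt3a (-0.64, 0.0034) were lower on replicate 1 at 40 µM. Between the control arrays the gaps of all 13 genes lay between -0.12 and 0.19, a range that also held Tusc3, Stt3b, Mlec and Stt3a at 2.5 µM. Wider gaps in the treated groups were not particular to OST genes. The median SD of the 2 arrays over all genes was 0.0875 in control, 0.192 at 2.5 µM and 0.259 at 40 µM. At 40 µM the SDs of Stt3b, Mlec, Magt1 and Rpn2 lay under that median, and those of the other OST genes above it. The part of the low hybridisation and poly-A controls in these differences was not tested, and no control array was low.

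**Figure D3:**
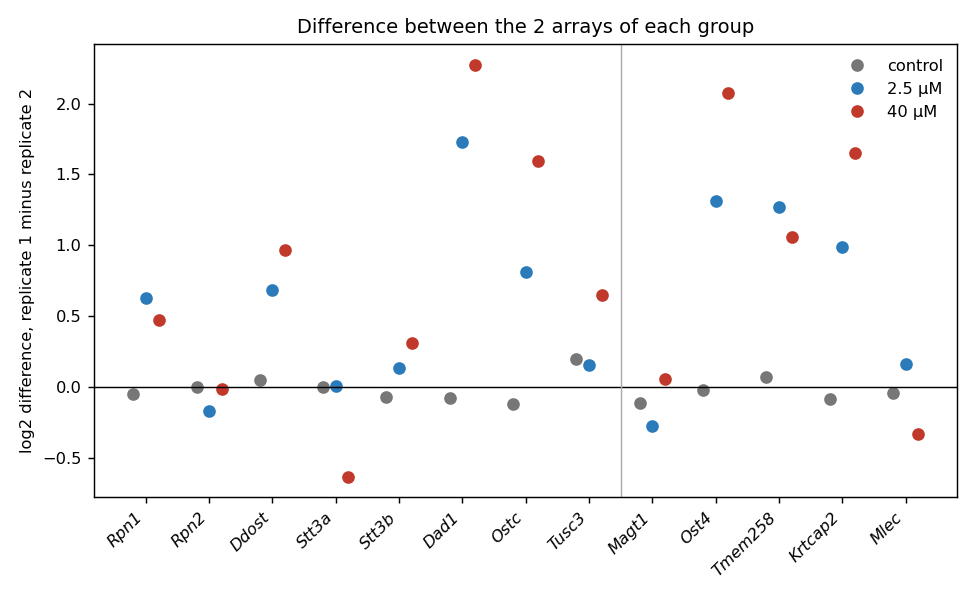
Log2 expression of replicate 1 minus replicate 2 (y axis) for each OST gene (x axis; members left of the line) in control, at 2.5 µM and at 40 µM. Control gaps stay between -0.12 and 0.19, and the gaps of Dad1 reach 1.73 at 2.5 µM and 2.28 at 40 µM.

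The steps around OST were described from gene lists, chosen with earlier results of these data known. Assembly of the lipid-linked donor had 20 of 22 genes measured, 8 of them above background. None passed at either dose (smallest adjusted p = 0.349 at 40 µM), and at an unadjusted p under 0.05 there were 2 higher and 0 lower at 40 µM, Alg5 and Alg12, where 5.18% and 6.86% of all genes were. Alg12, a mannosyltransferase whose level was below background, differed by 1.12 (SE 0.32). The list's median log2 difference was 0.23 at 40 µM and 0.21 at 2.5 µM. Alg5, which makes the glucose donor for the glycan, differed by 0.67 (SE 0.24) at 40 µM and Dpagt1, which adds the first sugar to dolichol, by 0.66 (SE 0.38). Nus1, a subunit of the enzyme that makes the dolichol chain, differed by -0.17 (SE 0.16), and its partner Dhdds by 0.16 (SE 0.26). In nucleotide sugar supply, 10 of 10 genes were measured, none passed, and the median was 0.32 at 40 µM. At an unadjusted p under 0.05, 2 were higher there, where 5.18% of all genes were. These were Gnpnat1 and Uap1 of UDP-GlcNAc synthesis, both below background, with differences of 1.23 (SE 0.51) and 0.65 (SE 0.22). Ugp2, which makes UDP-glucose, and Gmppa, a regulator of GDP-mannose synthesis, differed by 0.51 (SE 0.39) and 0.10 (SE 0.25), and Gfpt1 and Pmm2, of the hexosamine and mannose routes, by -0.04 (SE 0.19) and -0.03 (SE 0.20).

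Downstream of OST, glycan trimming and glycoprotein folding had 15 of 15 genes measured and none passed (smallest adjusted p = 0.334 at 40 µM). At an unadjusted p under 0.05, 2 were higher at 40 µM, where 5.18% of all genes were, namely the glycoprotein disulfide isomerase Pdia3, with a log2 difference of 1.20 (SE 0.17), and its lectin partner calreticulin (Calr), with 0.66 (SE 0.17). Calr lay at 18.83 and 18.50 at 40 µM, against 18.05 and 17.97 in control, so both arrays were higher, also the one that was not low. Canx, the membrane-bound relative of Calr, differed by 0.20 (SE 0.19) and Edem3, a mannosidase of glycoprotein disposal, by -0.15 (SE 0.18). The list's median was 0.07 at 40 µM and -0.06 at 2.5 µM.

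At 2.5 µM the same list held 2 genes lower at an unadjusted p under 0.05 and 0 higher. Over all 19505 genes, 1050 (5.38%) were lower and 827 were higher. These were Lman1 and Lman2, lectins that carry glycoproteins between the endoplasmic reticulum and the Golgi. Lman1 lay at 12.85 and 12.93 at 2.5 µM, against 13.53 and 13.57 in control, a log2 difference of -0.66 (limma adjusted p = 0.479). Lman2 lay at 10.47 and 9.97 at 2.5 µM, against 10.81 and 10.76 in control, a difference of -0.57 (adjusted p = 0.518).

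The translocon list, the channel and the enzymes that OST sits beside, had 19 of 19 genes measured, and its 19 log2 differences at 40 µM were all above 0, with a median of 0.47, where 9507 of all 19505 genes and 2317 of the 4147 above background were above 0. None passed (smallest adjusted p = 0.349). Ssr2, Tram1, Srprb and Sec61b made up the 4 that were higher at an unadjusted p under 0.05, and 0 were lower, where 5.18% and 6.86% of all genes were, and the medians were 0.77 on 40 µM replicate 1 and 0.14 on replicate 2. Spcs2, of the signal peptidase, differed by 0.96 (SE 0.46) and Tram1, a helper of chain insertion, by 0.94 (SE 0.31). Sec61a1, the channel itself, differed by 0.15 (SE 0.16), Spcs3 by 0.06 (SE 0.19) and Sec63 by 0.0010 (SE 0.27). Sec61b, below background, differed by 0.83 (SE 0.34).

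**Figure D4:**
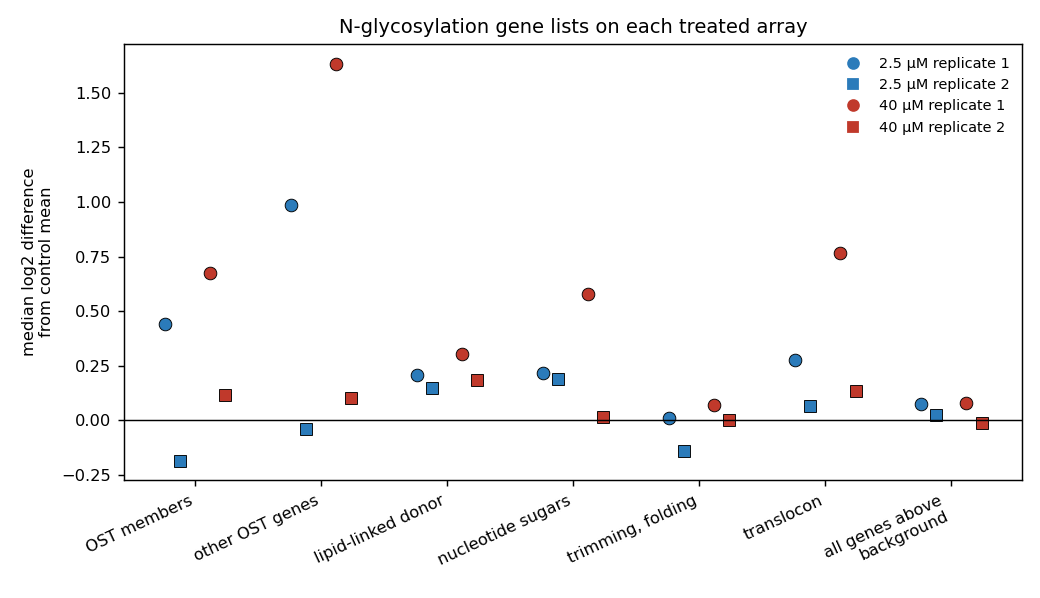
Median log2 difference from the control mean (y axis) of 6 gene lists and of all genes above background (x axis) on each treated array; circles are replicate 1, squares replicate 2. For the OST members it is 0.44 and -0.18 at 2.5 µM and 0.67 and 0.12 at 40 µM (replicates 1 and 2).

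The genes whose profile over the 6 arrays was most like that of Rpn2 were sought among the other 4146 genes above background, by the root mean square difference between log2 profiles centred on each gene's mean. The closest were Lman1 (0.106), Tubb3, a neuronal-type beta tubulin (0.130), Cdc42se1, an effector of the GTPase CDC42 (0.136), Gclc, the catalytic subunit of glutamate-cysteine ligase (0.137), and Lgalsl, a galectin-like protein (0.155), beside a median of 0.469 over all compared. The nearest OST member, Rpn1, had 0.401 and rank 1064. At 2.5 µM these 5 lay 0.62 to 0.72 below control on the log2 scale and at 40 µM between -0.24 and 0.02 from control, and the choice by profile over all 6 arrays fixes both.

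**Figure D5:**
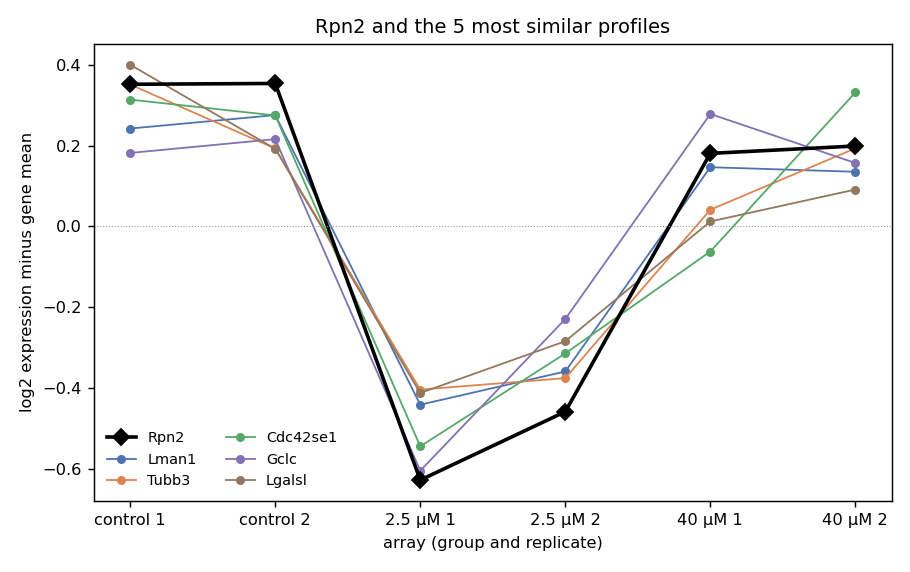
Log2 expression minus the gene's mean over the 6 arrays (y axis) for Rpn2 and the 5 genes with the most similar profile (x axis: array by group and replicate). All 6 are lowest at 2.5 µM, and Lman1 runs closest to Rpn2, with a root mean square difference of 0.106.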

How the data were processed

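Log2 expression values were deposited by the authors. The submitters' processing notes list RMA, Transcriptome Analysis Console and Affymetrix Expression Console. RMA commonly includes quantile normalization. Over the 19505 genes used here, which are not all deposited features, the arrays were not equal in width, and nothing about the normalization is read from this. The top value of 19.9 exceeds a plain log2 scan, and what raised it is not given in the sources used here, so folds are on the deposited scale. Of 22206 transcript clusters, 19572 carried exactly 1 gene symbol in the platform annotation. The other 2634 carried none or several, which were not counted apart, and were left out. The cluster with the highest mean stood for each of 19505 genes, 55 of which had several. Genes were tested with limma 3.58.1 in R 4.3.3, with all 6 arrays, 1 mean per group and a mean-variance trend (residual degrees of freedom 3, prior degrees of freedom 4.11). Tests were two-sided and adjusted by Benjamini-Hochberg over all genes at 0.05. The fit was also run on simulated arrays with independent noise and, for each gene, the same spread in all groups. The real arrays spread unequally between groups, so nothing about them is read from that run. Arrays give no read depth, and their number limits the precision.

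The members and lists were chosen with earlier results of these data known. Named genes were the members, the other OST genes, Dpagt1, Canx, Calr, Sec61a1, Sec61b and, per longer list, the 2 largest and 2 smallest differences at 40 µM among genes above background, and 5 genes by likeness to Rpn2. Alg12, Gnpnat1, Uap1, Ssr2, Srprb and Lman1 are also named, after their values were seen, because they made up small counts. Dpm1, Alg10b, Pdgfra and Cd68 were not matched in the annotation used here. Alternatives covered quantile normalization, median centring, a background filter, no variance trend, array weights, the replicate number or the array split as a block, leaving out arrays, and averaging a gene's clusters.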

Additional observations from a re-analysis of the deposited data

How the results depend on the processing

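No gene passed in any comparison with all 6 arrays, and in 12 of the 15 alternatives this held for 40 µM against control, 2.5 µM against control and 40 µM against 2.5 µM alike. Without both low arrays 3749, 3991 and 2965 genes passed in these comparisons, the error then coming from the pair of controls. With the array split as a block 1 gene passed at 40 µM against 2.5 µM. Leaving out 1 array at a time gave 0 to 2235 genes at 40 µM against control, the highest without 40 µM replicate 2. The members' median log2 difference at 40 µM lay above 0 in all 15 alternatives, from 0.12 to 0.67 (0.29 with quantile normalization). The background filter, dropping the variance trend, array weights, the replicate block, averaging clusters and leaving out a 2.5 µM array left it at 0.39. Leaving out a 40 µM array gave 0.12 or 0.67, the medians of those arrays by themselves, both above 0. The sign was thus largely fixed in advance, and nothing is read from it. At 2.5 µM the members' median was -0.20 with the array split as a block, -0.18 without both low arrays, and -0.18 to 0.44 with 1 array left out. Rpn2 at 40 µM lay between -0.23 and -0.12 and never passed. With all 6 arrays its limma adjusted p ran from 0.599 to 0.758. Settings that left the members' median alone also left Rpn2 at 40 µM at -0.16. At 2.5 µM Rpn2 lay between -0.98 and -0.81, the values of its 2 arrays, on which the family was chosen. Stt3a at 40 µM ranged from -0.63 to 0.0064 with 1 array left out, and was 0.0064 whenever 40 µM replicate 1 was left out, both low arrays together included. The replicate number as a block gave 0 genes at 40 µM against control and a difference of -0.16 for Rpn2 (adjusted p = 0.726), and changed no call of a member. Same-numbered arrays deviated together between 2.5 µM and 40 µM (r = 0.386 across genes) and not between control and 2.5 µM (-0.0045) or 40 µM (-0.012), so the numbers were not taken as pairs. With 2 arrays a group, and Ostc, Tusc3 and Tmem258 near background, small differences were not detectable. With all 6 arrays large ones were not called either, such as log2 differences of 1.51 for Dad1 and 1.20 for Pdia3 at 40 µM. The lack of calls is therefore not evidence of no change.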
